A study of Mus musculus with 15 samples.

Results

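Amy2a5 is a mouse alpha-amylase gene, read on these arrays by 1 probe of 59709 noncontrol probes. The probe was found by the RefSeq transcript that the array design attaches to it, and it was chosen by the spread of its own signal between the stages, so its levels are given here as a description without a test. The 15 arrays held whole-liver RNA of C57BL/6 mice in 5 groups of 3, namely fetal liver of E12.5, E14.5 and E17.5 (days of embryonic life), neonatal liver, and liver of adults aged 8 weeks. No genotype beyond the strain and no treatment is named, the sex and exact neonatal day are not given, and the labels do not say whether the 3 samples of a stage came from separate animals, litters or pools, so spreads and p-values below measure only the differences between these samples, which may be technical. RNA was depleted of ribosomal RNA, copied by random priming over whole transcripts and hybridised in 1 colour.

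Alpha-amylase is a secreted enzyme that cuts the internal bonds of starch and glycogen. The mouse amylase genes lie in a cluster: the Amy2 copies, Amy2a5 among them, are known from the exocrine pancreas, while Amy1 is known from the salivary gland, and from a separate and weaker start in the liver. The liver itself is first a site of blood formation and then, around birth, takes up its metabolic work, including the storage and release of glycogen.

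The signal of this probe was not assigned to 1 of the amylase copies, Amy1 among them, since the probe's own sequence was not used here. The sequences before their starts, which the probe does not measure, are shown for how the annotated copies differ. RefSeq on GRCm38.p6 annotates 7 amylase genes with 8 start sites, all on the minus strand of chromosome 3, and the 250 bases before each were compared. Below are the window of Amy2a5 (chr3:113258700-113258949), that of Amy2a4 (chr3:113291450-113291699), and both windows of Amy1, the upstream start (chr3:113577751-113578000), known from the salivary gland, and the downstream start (chr3:113574763-113575012), known from liver. Capitals mark a run of 112 bases that Amy2a5 shares with other copies, and each line reads 5′ to 3′ toward the start.
Amy2a5: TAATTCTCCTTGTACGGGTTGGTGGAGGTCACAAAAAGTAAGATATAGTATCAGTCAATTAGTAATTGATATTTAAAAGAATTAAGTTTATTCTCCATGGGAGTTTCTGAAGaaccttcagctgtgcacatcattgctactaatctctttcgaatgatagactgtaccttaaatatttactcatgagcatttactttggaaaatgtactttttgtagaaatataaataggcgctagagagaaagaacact
Amy2a4: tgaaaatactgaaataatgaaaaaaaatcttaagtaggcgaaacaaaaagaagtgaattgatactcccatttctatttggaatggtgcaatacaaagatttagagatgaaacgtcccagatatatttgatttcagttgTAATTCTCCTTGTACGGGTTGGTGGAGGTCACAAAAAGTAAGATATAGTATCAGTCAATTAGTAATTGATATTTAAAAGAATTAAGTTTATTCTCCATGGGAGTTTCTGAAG
Amy1 upstream start: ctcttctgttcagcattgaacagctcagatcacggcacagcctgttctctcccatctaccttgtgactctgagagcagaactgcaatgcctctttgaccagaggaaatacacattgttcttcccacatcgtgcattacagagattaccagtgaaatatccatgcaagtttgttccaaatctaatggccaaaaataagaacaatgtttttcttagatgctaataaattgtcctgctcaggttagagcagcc
Amy1 downstream start: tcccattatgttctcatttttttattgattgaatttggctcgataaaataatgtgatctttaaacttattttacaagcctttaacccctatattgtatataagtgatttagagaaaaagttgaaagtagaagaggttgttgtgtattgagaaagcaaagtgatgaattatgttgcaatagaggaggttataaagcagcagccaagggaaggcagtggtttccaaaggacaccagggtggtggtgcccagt

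The shared run fills positions 1 to 112 of the Amy2a5 window and was present in 5 of the 8 windows, those of Amy2a1, Amy2a2, Amy2a3, Amy2a4 and Amy2a5. The windows of Amy2a2, Amy2a3 and Amy2a4 were identical over all 250 bases. In the 4 other Amy2a copies the run ends at the annotated start, so that their windows lie 138 bases further upstream than that of Amy2a5 relative to the shared sequence. The longest exact run that Amy2a5 shared with Amy2b was 11 bases, and with either Amy1 window 7 bases. The Amy2a5 window held the letters TATAAA at position 221, 30 bases before the start, where a TATA box would lie, as did 12.4% of 32851 RefSeq windows of this length on either strand. Among the amylase windows TATAAA was also in those of Amy2b and the downstream start of Amy1, but not in the upstream Amy1 window or the other Amy2a windows. The other Amy2a windows end at the base that matches Amy2a5 position 112, so sequence beyond it, where position 221 lies, was not compared. In the Amy2a5 window the E-box letters CAGCTG were at position 119 (13% of all windows). TATTTAC was at position 174 (2.73% of all windows), whereas TGTTTAC (3.17%) and AGATAA (9.99%) were not in these 250 bases. These matches describe the letters and were not tied to the signal.

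The processed signal is the brightness of a spot in arbitrary units after the corrections of the scanner software. At E12.5 that of Amy2a5 was at a floor, 4.95, 6.49 and 4.85 on the 3 arrays. The background-subtracted brightness of the spot was 2.11, -21.1 and 3.97 there, below the processed value on each array. None of the 3 spots was well above background by the scanner software, whose own error estimate was 100%, 100% and 101% of the processed signal. The lowest signal called well above background on the same arrays was 24.8, 32.6 and 24.3. The Amy2a5 value was the lowest value on each of the 3 arrays, and 15982, 14523 and 12852 other probes had exactly the same value there. E12.5 therefore has only an upper bound, and its values have no order among themselves.

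At E14.5 the processed signal was 176, 233 and 161, well above background on all 3 arrays. At E17.5 it was 12352, 11686 and 8509. In neonatal liver it was 9609, 18209 and 18489. In adult liver it was 938, 909 and 701. All 12 of these signals were well above background and none was saturated. Every E17.5 and neonatal signal exceeded every adult signal, and every adult signal exceeded every E14.5 signal. The E17.5 and neonatal ranges overlapped, because neonatal replicate 1 lay below E17.5 replicates 1 and 2.

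**Figure D1:**
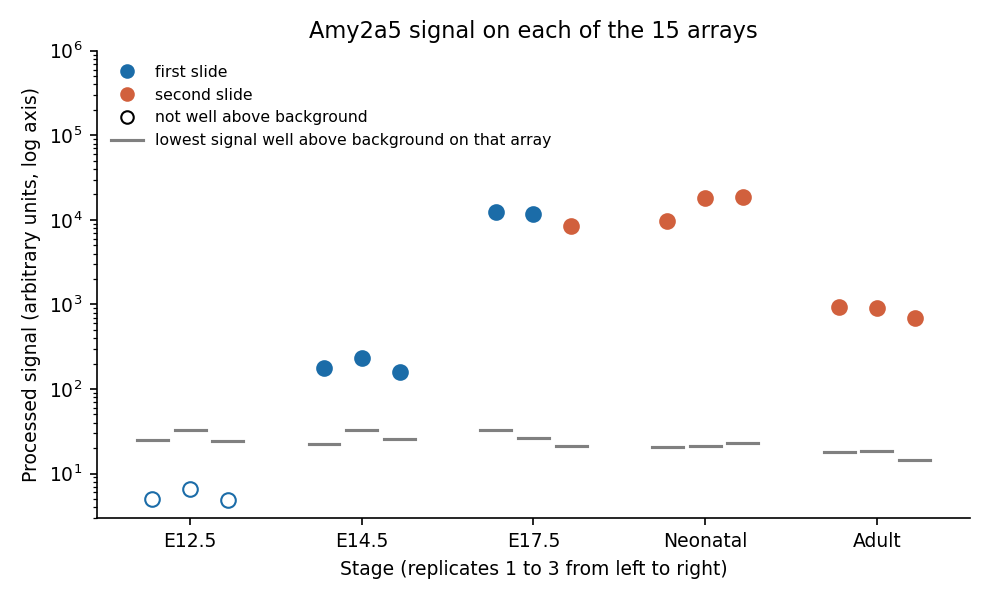
Processed signal of the Amy2a5 probe (log axis, arbitrary units) on each array by stage, with colour for the slide, open points for spots not well above background, and grey bars for the lowest signal well above background on that array. Slides were inferred from the scan dates. The E12.5 points lie below the grey bars, and the E17.5 and neonatal points lie above all adult points.

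The averages of the processed signal were 190 ± 38.1 at E14.5, 10849 ± 2053 at E17.5, 15436 ± 5048 in neonatal liver and 849 ± 129 in adult liver (SD, n = 3 each). The neonatal arrays varied most, with a coefficient of variation of 32.7%, against 18.9% at E17.5, 20.1% at E14.5 and 15.2% in adult liver. Amy2a5 had 1 spot per array, so the spread between spots of this probe is not known. For scale, 15 other probes were spotted 20 times on every array, and where their signal was above 500 the spread of their spots had a median SD of 0.07 on the log2 scale and a highest of 0.19. Between signals of 100 and 500, the range that holds the E14.5 values, that SD had a median of 0.12 and a highest of 1.80 over 22 probe and array pairs.

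To compare stages, the log2 signal was set against the 75th percentile of the noncontrol probes on its own array. On that scale Amy2a5 averaged -5.44 ± 0.47 at E12.5, where the spread is that of the floor and not of a measured level, -0.58 ± 0.22 at E14.5, 5.56 ± 0.26 at E17.5, 6.03 ± 0.46 in neonatal liver and 2.26 ± 0.28 in adult liver (SD, n = 3 each). A value of 0 is a signal equal to the 75th percentile. The Amy2a5 signal was 42.5, 58.4 and 42.7 times that percentile on the E17.5 arrays, 45.2, 80.8 and 76.6 times in neonatal liver, and 5.80, 3.92 and 4.84 times in adult liver. At E14.5 it was 0.685, 0.774 and 0.569 times the percentile, below it on all 3 arrays. From low to high the stages ran E12.5, E14.5, adult, E17.5 and then neonatal. Of the 37359 features that cleared the background on each of the 3 arrays in some stage, 336 others (0.899%) had their stage means in the same order.

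**Figure D2:**
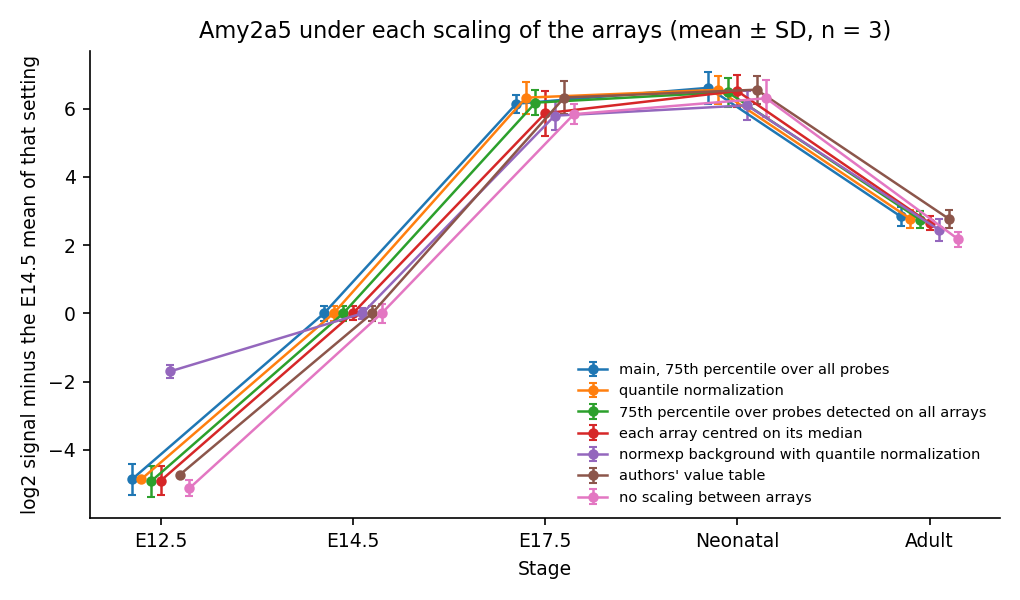
Log2 signal of Amy2a5 by stage, minus the E14.5 mean, under each of 7 ways of processing the arrays (points and bars, mean ± SD, n = 3; points of a stage are set side by side for legibility). The order E14.5, adult, E17.5, neonatal is the same in the settings drawn, whereas the E12.5 level moves with the floor of each setting.

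The step between E14.5 and E12.5 is a lower bound, the mean log2 level at E14.5 against the mean of the lowest levels that counted as well above background on the E12.5 arrays. On these means E14.5 was at least 5.82-fold higher, and E17.5, neonatal and adult liver were at least 411-fold, 567-fold and 41.6-fold higher than E12.5. By single arrays, a comparison added after seeing the data, the lowest array of E14.5, E17.5, neonatal and adult liver was 3.54-fold, 265-fold, 281-fold and 24.4-fold above the highest of the E12.5 floors. Normexp background correction with quantile normalization lowered the E14.5 minus E12.5 difference to 1.70 in log2, under the bound of 2.54. E17.5 was 6.14 above E14.5 in log2, or 70.5-fold, and the closest arrays of these stages were 5.78 apart. Among 27225 features well above background at both stages, that change ranked 3 from the top, against a median change of -0.11 and a 99th percentile of 2.16.

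Neonatal and E17.5 liver were the only neighbouring stages whose arrays overlapped. Their means were 0.47 apart in log2 (1.38-fold higher in neonatal), with a pooled SD of 0.38. The difference was 0.23 with quantile normalization and in the authors' value table, and 0.73 without neonatal replicate 1. By its value of 0.47 the difference ranked 7044 from the top of 27153 features. Adult minus neonatal liver was -3.77 in log2, 13.6-fold lower, with 2.96 between the closest arrays. This fall ranked 188 from the bottom of 28625 features, whose median change was 0.16 and 1st percentile -3.26. Adult minus E17.5 was -3.30 (9.87-fold lower), with 2.87 between the closest arrays, and adult minus E14.5 was 2.84 (7.15-fold higher), with 2.34 between the closest arrays. Over the 4 stages with a measured level the means of Amy2a5 spanned 6.61 in log2, or 97.5-fold. That was rank 141 of 24981 features, whose median span was 1.14. The probe was chosen by its spread between stages, so this rank and those of the steps are descriptions. In whole liver, fewer cells with the transcript and less transcript per cell cannot be told apart.

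**Figure D3:**
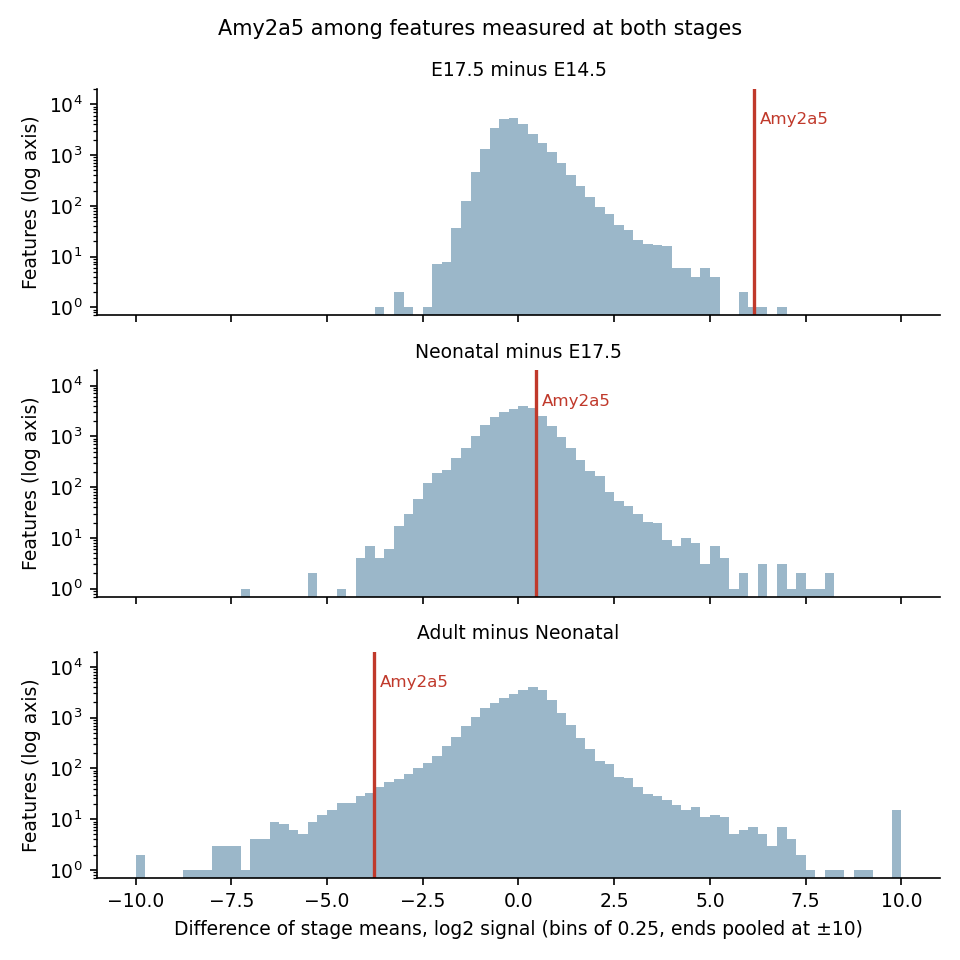
Distribution of the log2 change (later minus earlier stage) over all features well above background at both stages, with the change of Amy2a5 marked by a line. Amy2a5 lies in the far upper tail for E17.5 minus E14.5 (6.14) and in the lower tail for adult minus neonatal (-3.77). For neonatal minus E17.5 (0.47) it lies above the median of 0.04 and below the 99th percentile of 2.34.

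Several properties of the arrays moved with stage. Slides were inferred from the scan dates, so a slide here means the arrays that share a scan date. The first slide held E12.5, E14.5 and replicates 1 and 2 of E17.5, and the second held the remaining E17.5 array with neonatal and adult liver, so slide and stage are separable only through E17.5. There Amy2a5 was at 5.42 in log2 on the second slide and at 5.41 and 5.87 on the first. Within the first slide, E17.5 replicates 1 and 2 were above all E14.5 arrays, and within the second, E17.5 replicate 3 and the neonatal arrays were above all adult arrays. On E17.5 replicate 1, 80.9% of probes and 55.8% of negative-control spots were called well above background, against 50.9% to 62.9% of probes and 4% to 9.58% of negative controls on the other 14 arrays, while its Amy2a5 signal before scaling lay within the range of the other E17.5 and neonatal arrays. After scaling it was the lowest of these 6 arrays, at 5.41 against 5.42 to 6.34 for the others, and with each array centred on its median it was at 7.22 against 8.08 to 8.92. Without that array E17.5 minus E14.5 was 6.22 in log2. The brightest of the 6 spots nearest to Amy2a5 had signals of 339 to 1101 at E12.5, 1703 to 2179 at E14.5, 1657 to 3292 at E17.5, 4350 to 4746 in neonatal liver and 6082 to 27000 in adult liver, an order over the stages that differed from that of Amy2a5.

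The array names few genes that could place amylase in its pathway or in a cell type. Of the 7 amylase genes 1 is named by a probe, Amy2a5. None of 33 pancreatic acinar genes, 11 salivary gland genes, 25 genes of starch and glycogen turnover or 11 genes of intestine and stomach is named, so RNA of those tissues was not measured by name here. Of 28 genes of glucose handling 3 are named, of 21 hepatocyte genes 1, of 16 erythroid genes 1 and of 24 genes of other liver cells 2. The label of liver could thus not be checked against its defining markers. With 12 commonly used reference genes, some of which stand in other lists too, 17 distinct genes were tested with limma in 1 fit over the 15 arrays, with p-values adjusted by the Benjamini-Hochberg method over all 37359 features.

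Between E14.5 and E12.5, limma called 0 of the 17 genes (4.93% of all features tested were called) and 1 at an unadjusted p under 0.05, Ldhal6b, a gene of the lactate dehydrogenase family (1.31 ± 0.55, SE, adjusted p = 0.228 by limma). With slide as a block Ldhal6b was called for this step (1.31, adjusted p = 0.00986), for E17.5 minus E14.5 (1.87, 0.00194) and for adult minus neonatal (1.28, 0.00235). Between E17.5 and E14.5, where Amy2a5 differed by 6.14, 1 of 17 was called, against 7.11% of all features. This was Gk, the glycerol kinase that feeds glycerol into glucose synthesis. Its log2 level was -0.32, 0.17 and 0.01 on the E17.5 arrays, and -1.43, -1.27 and -1.37 on the E14.5 arrays. All E17.5 values lay above all E14.5 values, a change of 1.31 ± 0.29 (SE, adjusted p = 0.0157 by limma). Leaving out replicate 1 or 3 of E14.5 ended this call with the change at 1.27 (adjusted p = 0.0672) and 1.30 (0.0551), as did centring each array on its median (1.03, adjusted p = 0.12).

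Between neonatal and E17.5 liver 3 of 17 genes were called, against 18.1% of all features. Gk was higher again, at 1.97, 1.25 and 1.41 in neonatal liver, above every E17.5 array (1.59 ± 0.29, SE, adjusted p = 0.00253 by limma). Hmgcs1, the cholesterol-synthesis enzyme that makes HMG-CoA, was at 6.09, 5.43 and 5.76 in neonatal liver, against 7.55, 7.79 and 8.29 at E17.5. All neonatal values were lower, a change of -2.12 ± 0.28 (SE, adjusted p = 0.000305 by limma). Ldhal6b was at -1.55, -2.09 and -1.98 in neonatal liver, against 0.94, 1.37 and -1.51 at E17.5, where the lone array of the second slide was close to the neonatal ones. Its change of -2.14 ± 0.55 (SE, adjusted p = 0.0166 by limma) became -0.36 with slide as a block (adjusted p = 0.721), and the call was also lost in 4 of the 6 fits that left out an array, those without E17.5 replicate 1 or 2 or neonatal replicate 2 or 3.

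Between adult and neonatal liver, where Amy2a5 differed by -3.77, 7 of 17 genes were called, against 25.9% of all features. Higher in adult liver were Hmgcs1, with a mean of 8.86 in adult and 5.76 in neonatal liver (adjusted p = 1.91e-06 by limma), the lymphoid chemokine genes Ccl21b (2.39) and Ccl21c (1.63), which are near-identical copies and were not told apart, and B2m (1.24), the light chain of class I histocompatibility molecules. The B2m call was lost with median centring, where the change was 1.15 (adjusted p = 0.0576). Lower were Tfrc (-2.66), the transferrin receptor that brings iron into red cell precursors and other dividing cells, the tubulin gene Tuba1b (-1.57) and the ribosomal protein gene Rpl13a (-1.22). Tfrc, the 1 named erythroid gene, was at 5.81, 5.62 and 5.06 in adult liver, against 8.24, 8.27 and 7.98 in neonatal liver. All adult values were lower (-2.66 ± 0.34, SE, adjusted p = 4.7e-05 by limma). The part of a changing cell mix in the Amy2a5 levels was not tested.

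The 12 reference genes were not steady under every setting. Their changes ran from -0.72 to 0.58 between E17.5 and E14.5, with a median of -0.13, and 0 were called by limma (2 of the 17 list genes had an unadjusted p under 0.05). Rpl13a (-0.72, adjusted p = 0.0835) was called here with quantile normalization (0.0454), the 75th percentile of probes detected on all arrays (0.0321) and normexp (0.0135). It was also called with slide as a block (0.0121), which for this step gives the same values as leaving out E17.5 replicate 3. B2m was called with normexp (0.0378). The changes of the 12 genes ran from -0.56 to 0.85 between neonatal and E17.5 liver, with a median of 0.17 and 0 called. Tfrc and Tuba1b were called lower there with quantile normalization (adjusted p = 0.0287 and 0.00274) and with normexp (0.0105 and 0.000275), and Hsp90ab1 was called higher with the replicate block (0.0443). Gusb was called higher there without E17.5 replicate 3 (adjusted p = 0.0481 by limma). Between adult and neonatal liver the changes of the 12 genes ran from -2.66 to 1.24, with a median of -0.59, and 4 were called, B2m, Tfrc, Tuba1b and Rpl13a. Gusb was called lower in adult liver with quantile normalization (adjusted p = 0.0103 by limma), the 75th percentile of probes detected on all arrays (0.0362), normexp (0.00183) and slide as a block (0.0193). Hprt was called lower with quantile normalization (0.00598) and normexp (0.000958), and Nono with normexp (0.0453). The median over all tested features was -0.06, -0.0034 and 0.17 for these steps.

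**Figure D4:**
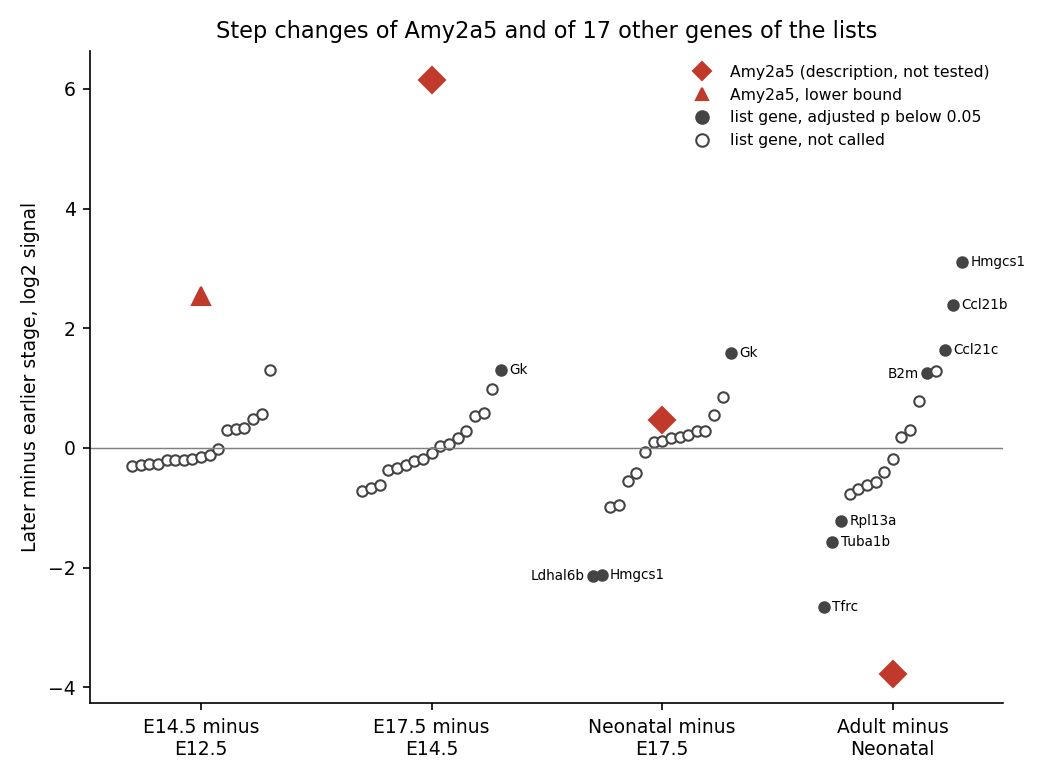
Log2 change (later minus earlier stage) of Amy2a5 (red) and of each of the 17 other list genes (filled where limma's adjusted p was below 0.05) for the 4 steps, with a triangle where Amy2a5 has only a lower bound. Amy2a5 lies above the list genes for E17.5 minus E14.5, among them for neonatal minus E17.5 and below them for adult minus neonatal.

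The course of Amy2a5 was also set beside every other feature by the Pearson correlation of log2 levels over the 15 arrays. These arrays share stage, slide and scaling, and the E12.5 values of Amy2a5 are a floor, so the correlation is a description. The 10 features most alike had correlations of 0.966 to 0.983 and Spearman correlations of 0.90 to 0.97. The files pair none of them with a gene. The closest was ASMM9PARTA025592, whose stage means were -1.91, -0.08, 2.91, 3.54 and 0.95 from E12.5 to adult, followed by ASMM9PARTA051792 with 2.27, 3.50, 5.71, 5.87 and 4.61. All 10 had their lowest mean at E12.5, 9 had their highest in neonatal liver, and ASMM9PARTA033599 had it at E17.5. Their means spanned 2.58 to 6.16 in log2, against 11.5 for Amy2a5 measured to its floor. Among the 10, ASMM9PARTA042835 was well above background on 0 of 3 arrays at E12.5, ASMM9PARTA035248 and ASMM9PARTA046450 on 1 and ASMM9PARTA031406 on 2, so their spans also run to background. A correlation of 0.9 or more was reached by 140 features, 0.377% of the 37125 compared. By the order of ranks, or by the 5 stage means, 2 of the 10 features were again among the 10 most alike, and by the arrays of either slide alone 0 were.

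**Figure D5:**
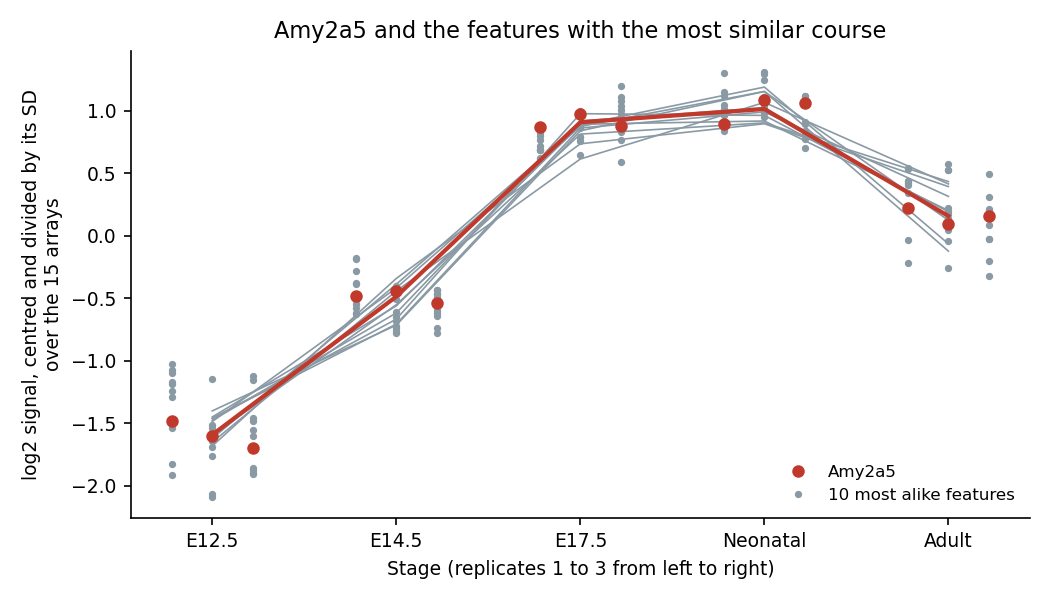
Log2 level of Amy2a5 (red) and of the 10 features with the highest Pearson correlation with it (grey) on each array, each centred and divided by its SD over the 15 arrays, with lines through the stage means. The courses share low E12.5 values, high E17.5 and neonatal values and adult means between those of E14.5 and E17.5.

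Features with a gene symbol followed Amy2a5 less closely, and 0 of the 74 compared reached a correlation of 0.9. The highest were Vmn1r111 (0.787), a vomeronasal receptor gene that shared the floor value of Amy2a5 on the E12.5 arrays and was well above background on 0 of 3 arrays at E12.5, 0 of 3 at E14.5 and 1 of 3 at E17.5, Gm14819 (0.784), Tcstv1 (0.766), the histone gene H2ac18 (0.764) and Gm10488 (0.702). H2ac18 differed from Amy2a5 in adult liver, where its mean of 7.64 was the highest of its 5 stages. The lowest correlations were those of Tsnax (-0.710), Ulbp1 (-0.703) and Aida (-0.667). Each of these was highest at E12.5 and spanned 0.82 to 1.08 in log2. Of the list genes called in the main fit, those with a positive correlation with Amy2a5 were Gk (0.68), B2m (0.53) and Ldhal6b (0.37). The others were Rpl13a (-0.54), Ccl21c (-0.37), Ccl21b (-0.32), Tuba1b (-0.30), Tfrc (-0.24) and Hmgcs1 (-0.07).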

How the data were processed

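Per the labels' protocols, total RNA of mouse liver was freed of ribosomal RNA and labelled with Cy3 by random priming. The deposited scanner files give, per the file headers, linear spot intensity from which background and a spatial trend were removed by Agilent Feature Extraction 11.0.1.1, while the submitters' processing notes name version 10.7.3.1. Flags from the file headers say whether a spot was well above background, saturated or an outlier. A multiplicative detrending step was run on 6 arrays, all of the second slide; adult replicate 2 was the array there without it. The authors also deposited a log2 table of 29158 probes, whose normalization is not given in the sources used here.

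Control spots and outlier spots were left out, processed signals were divided by the 75th percentile of their array and put on the log2 scale (percentiles 145 to 301 in signal), and spots of 1 probe were averaged. Where a gene symbol had several probes, only the probe with the highest mean level was kept before features were counted. The 37359 features that cleared the background on each of the 3 arrays in some stage were fitted with limma 3.58.1 in R 4.3.3, with a mean per stage, and called at an adjusted p below 0.05. For a stage not well above background, a bound used the lowest signal well above background on each array. Of 123 RefSeq accessions, 116 matched a current symbol (GRCm38.p6 tables, names and promoter windows). The array's probe grid is built on mm9, so no probe coordinates are given. Named were Amy2a5, all tested members of 10 gene lists, the 10 features and the 5 symbols most like Amy2a5 and the 3 symbols least like it. The members and lists were chosen with earlier results of these data known. Alternatives were quantile normalization, other centrings, normexp background correction, the authors' table, no filter, and slide and replicate blocks. Normexp used an offset of 50 on the median spot signal, since the mean is not among the columns used. Each array of the stages compared was also left out in turn. The number of arrays limits the precision.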

Additional observations from a re-analysis of the deposited data

How the results depend on the processing

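The directions of the Amy2a5 differences were the same in every setting tried. With normexp background correction and quantile normalization, E14.5 minus E12.5 was 1.70 in log2 (4.87 without a bound, and 2.54 as a bound), E17.5 minus E14.5 was 5.79 and adult minus E14.5 was 2.44. Without scaling between arrays E17.5 minus E14.5 was 5.83, adult minus E17.5 -3.67 and adult minus E14.5 2.17, and with each array centred on its median E17.5 minus E14.5 was 5.86. Leaving out 1 array gave 4.64 to 5.11 for E14.5 minus E12.5, 5.99 to 6.24 for E17.5 minus E14.5, 0.31 to 0.73 for neonatal minus E17.5, -4.04 to -3.62 for adult minus neonatal, -3.44 to -3.15 for adult minus E17.5 and 2.70 to 2.98 for adult minus E14.5. Neonatal minus E17.5, 0.47 as reported, was 0.23 with quantile normalization and in the authors' value table. With slide as a block the values were 6.21 for E17.5 minus E14.5 and 0.61 for neonatal minus E17.5. They were -3.16 for adult minus E17.5 and 3.06 for adult minus E14.5. E17.5 was the only stage on both slides, with replicate 3 alone on the second, so that array sets the difference between slides. For E17.5 minus E14.5 the fit without that array gave the same 6.21.

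Counts of called list genes moved more. For E14.5 minus E12.5 the count of 0 was 1 with slide as a block. It was 0 in each of the 6 fits that left out an array of E12.5 or E14.5. Arrays of the other stages, which share the estimate of the spread, were not left out for this step. For E17.5 minus E14.5 the count of 1 was 2 with quantile normalization and with the 75th percentile of probes detected on all arrays. It was 0 with median centring, and 3 with normexp and with slide as a block. In the authors' table it was also 0, but that table does not hold Gk, the gene called. When 1 array was left out it was 0 to 3 (0 without E14.5 replicate 1 or 3, and 3 without E17.5 replicate 3). For this step that last fit gives the same values as slide as a block. For neonatal minus E17.5 the count of 3 was 6 with quantile normalization, 7 with normexp and 2 to 5 when 1 array was left out (5 without E17.5 replicate 3). For adult minus neonatal the count of 7 was 11 with normexp and 3 in the authors' table, which holds 3 of the 17 genes. It was 9 with slide as a block, and 7 to 8 when an adult or neonatal array was left out. Where no value above shows it, the cause was not tested. The replicate numbers did not pair the arrays: deviations of same-numbered arrays had median correlations of 0.08, -0.06 and 0.05 for numbers 1, 2 and 3. Each stage holds every replicate number once, so the replicate block cannot change a difference of stage means. The Amy2a5 differences thus stayed at 4.87, 6.14, 0.47 and -3.77 for the 4 steps. The block added 1 call, Hsp90ab1 in neonatal minus E17.5 (adjusted p = 0.0443 by limma). Of the 10 features most alike, 2 were shared with a Spearman correlation, 2 with stage means, 5 without the E12.5 stage, and 0 with the first slide alone or the second alone. Signal over background limits the E12.5 values, which are bounds.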
